A study of Mus musculus with 11 samples.

Results

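This account concerns 613 regions of the mouse genome that carried an H3K27ac peak in both libraries of stomach glands with activated Notch (NICD), in neither wild-type library, and in both libraries that also had 2 floxed alleles of Arid1a. They were found by merging all peaks of the 8 H3K27ac lists on the autosomes and X into 45804 regions, of which they make up 1.34%, and by asking for an overlap of at least 1 bp with a peak of each list. Of the 45804 merged regions, 5928 (12.9%) were gained with NICD, meaning that they were called in both NICD lists and neither wild-type list. The 613 regions are the gained regions that were also called in both 2-allele lists, and they are called the kept regions here. They make up most of the 774 merged regions (1.69%) called in both 2-allele lists and neither wild-type list. The regions were thus chosen by the H3K27ac calls of the wild-type, NICD and 2-allele libraries, whose values support nothing below. Another 1056 gained regions were called in 1 of the 2-allele lists, 558 in replicate 1 alone and 498 in replicate 2 alone. The remaining 4259 were called in neither and are called the missing regions.

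Chromatin of gland epithelium from the mouse stomach was immunoprecipitated for H3K27ac in 8 libraries and for H3K4me3 in 3 libraries. The 4 genotypes were wild type, Atp4bCre with Rosa26NICD (NICD), Atp4bCre with Rosa26NICD and Arid1aflox/+ (1-allele), and Atp4bCre with Rosa26NICD and Arid1aflox/flox (2-allele), so every floxed library also carried the Cre and NICD alleles. Each H3K27ac genotype had 2 libraries, and H3K4me3 was profiled in 1 wild-type library, 1 NICD library and 1 Arid1a-floxed library. The ages of the mice are not given in the sources used here. Cre was driven by the promoter of Atp4b, a gene of acid-secreting parietal cells, so recombination started from that lineage and a gland sample also held cells without it. Fixed pellets were pooled to reach enough tissue, so the number of animals behind each library is not known and a spread between libraries may be technical. The labels of the floxed H3K4me3 library disagree, with Het in its title and Arid1aflox/flox in its genotype, so it is called Arid1a-floxed. Peaks show neither how far the floxed alleles had recombined nor how many cells had done so.

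H3K27ac marks active promoters and enhancers, and H3K4me3 marks promoters. NICD is the intracellular part of a Notch receptor, which enters the nucleus, joins the DNA-binding protein Rbpj and a Mastermind coactivator, and turns on target genes. Arid1a binds DNA as part of SWI/SNF, a chromatin remodelling complex that opens nucleosomes at promoters and enhancers, and is known for its part in keeping enhancers active. Notch signalling in the stomach is known for holding gland cells in a dividing progenitor state.

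The libraries differed in depth and in the number of peaks called. Tags kept per library ran from 7.96 M to 18.3 M in the 6 scored H3K27ac lists and from 11.8 M to 20.8 M for H3K4me3, where M stands for 1e6 tags. NICD replicate 2 was the shallowest, with a redundant rate of 0.52. For H3K27ac the NICD lists were the longest, with 41380 and 25423 peaks, then the wild-type lists with 20572 and 18344, the 2-allele lists with 15353 and 14364 and the 1-allele lists with 5148 and 7594. The NICD H3K4me3 list held 39360 peaks, the wild-type one 17522 and the Arid1a-floxed one 5157. The 2-allele lists gave positions with no score and no header, so their depth is unknown and a difference in peak calling cannot be told apart from the allele number. Of 6 epithelial marker genes, all 6 had a peak at a start in the wild-type, NICD and first 2-allele H3K27ac lists, 5 in the second 2-allele list, and 3 and 2 in the 1-allele lists. Of 5 parietal marker genes, 2 (Atp4b and Hrh2) had a peak at a start in both wild-type lists and 0 in the NICD and 2-allele lists, while Atp4b had one in 1-allele replicate 1. For H3K4me3, 1 of the 5 had a peak in wild type (Hrh2), 3 in NICD (Atp4b, Hrh2 and Slc26a7) and 1 in the Arid1a-floxed library (Atp4b). Of 5 surface pit markers, 2 and 4 had an H3K27ac peak in wild type, 4 and 2 in NICD, 1 and 0 in 1-allele and 2 and 0 in 2-allele. Of 5 chief and neck markers, 2 and 0 had one in wild type, 3 and 1 in NICD and 0 in the 1-allele and 2-allele lists. Of 10 blood cell markers, 0 and 0 had an H3K27ac peak at a start in wild type, 1 and 2 in NICD (Ptprc, with Spi1 in replicate 2), 0 and 0 in 1-allele and 2 and 0 in 2-allele. Of 10 markers of fibroblasts, muscle and endothelium, 1 and 0 had one in wild type, 2 and 1 in NICD and 0 in the 1-allele and 2-allele lists. In the H3K4me3 lists 3 blood, 6 of these stromal, 5 pit and 4 chief and neck markers had a peak in NICD. In wild type and in the Arid1a-floxed library 0 of each set had one. So the blood marker Ptprc, like the gained regions, had an H3K27ac peak in both NICD lists and neither wild-type list. Apart from Ptprc and Spi1, no blood marker had an H3K27ac peak at a start in any list. No kept region lay at the start of any of these marker genes. The part of other cells in the kept regions was not tested, and in bulk samples fewer cells of a type cannot be told apart from less mark per cell.

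The strongest kept regions lay at gene promoters, and promoters at 5 of the 8 strongest are shown to give the sequence beside their starts. Those at Pemt, at Fto and Rpgrip1l, and at Dnah7b are not shown. Strength here is the within-list percentile of the fold enrichment of the region's strongest peak, averaged over both NICD lists, where fold enrichment is the authors' peak height over the local background. The promoters are the RefSeq bases of the GRCm38.p6 table from 250 bases upstream to the base before the start, written 5′ to 3′ on the strand of the gene. Capitals mark matches to the motifs searched on both strands, which are listed with their shares below.
Accs, chr2:93849800-93850049, minus strand: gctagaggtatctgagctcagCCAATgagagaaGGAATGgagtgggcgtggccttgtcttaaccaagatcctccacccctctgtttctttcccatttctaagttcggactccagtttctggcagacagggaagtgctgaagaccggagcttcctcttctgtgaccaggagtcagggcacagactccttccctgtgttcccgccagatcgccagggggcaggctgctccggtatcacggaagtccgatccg
Erfe, chr1:91366180-91366429, plus strand: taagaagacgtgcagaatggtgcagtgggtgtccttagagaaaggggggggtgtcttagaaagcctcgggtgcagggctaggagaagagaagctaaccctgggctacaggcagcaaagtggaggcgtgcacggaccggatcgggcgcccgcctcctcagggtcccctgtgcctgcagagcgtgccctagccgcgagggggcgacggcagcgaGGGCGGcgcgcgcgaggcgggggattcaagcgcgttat
Cenpw, chr10:30200541-30200790, minus strand: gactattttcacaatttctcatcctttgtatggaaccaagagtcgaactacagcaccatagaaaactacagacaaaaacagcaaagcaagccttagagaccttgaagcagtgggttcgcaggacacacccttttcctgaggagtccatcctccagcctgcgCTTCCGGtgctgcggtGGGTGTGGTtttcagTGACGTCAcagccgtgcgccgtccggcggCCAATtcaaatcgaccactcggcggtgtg
Rad18, chr6:112696671-112696920, minus strand: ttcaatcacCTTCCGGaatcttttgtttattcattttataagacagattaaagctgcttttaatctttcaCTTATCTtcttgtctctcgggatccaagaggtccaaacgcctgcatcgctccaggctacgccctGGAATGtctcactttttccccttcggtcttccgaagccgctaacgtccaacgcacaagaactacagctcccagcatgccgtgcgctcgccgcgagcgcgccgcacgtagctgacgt
Trappc2l, chr8:122611376-122611625, plus strand: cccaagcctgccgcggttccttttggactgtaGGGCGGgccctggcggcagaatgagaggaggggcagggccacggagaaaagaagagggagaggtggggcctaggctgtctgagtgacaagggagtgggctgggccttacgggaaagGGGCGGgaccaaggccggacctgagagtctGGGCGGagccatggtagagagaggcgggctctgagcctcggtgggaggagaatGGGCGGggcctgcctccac
The GC content was 56.4% for Accs, 65.6% for Erfe, 52.8% for Cenpw, 50.8% for Rad18 and 66.8% for Trappc2l. The Cenpw promoter holds a CRE, an Ets, a Klf, a Runx and an NF-Y match, and the Trappc2l promoter holds 4 Klf/Sp matches. A second Rad18 promoter, chr6:112696649-112696898, holds the Gata and Tead matches but not the Ets match. Of the promoters not shown, those of Fto and Rpgrip1l hold no match and that of Dnah7b holds 1 Ets match. The kept regions cover only part of these promoters: of 250 bases, 122 lay inside the region at Accs, 73 at Erfe, 68 at Cenpw, 199 at Rad18 and 94 at Trappc2l, so many of the matches lie outside it.

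Kept regions were mostly at promoters, whereas the missing ones were mostly distal. Of the 613 regions, 388 (63.3%) lay within 1 kb of the start of a protein-coding gene and 225 (36.7%) were distal, that is, with no such start within 1 kb. A start lay inside 191 kept regions (31.2%), and 56 (9.14%) lay over 50 kb from any start. Among the missing regions 82.2% were distal, 3.99% contained a start and 24.7% lay over 50 kb away. Regions called in both NICD lists were 44.3% distal, and the 8726 regions called in all wild-type, NICD and 2-allele lists were 15.2% distal. The kept regions therefore stood between the gained set as a whole (73.5% distal) and the regions marked in every one of those lists. The median distance to a start was 120 bp for kept and 17456 bp for missing regions. Among distal kept regions, 104 (46.2%) lay inside a gene body, against 48.9% of distal missing regions. The share of distal kept regions was 30.9% to 47.6% when each library used by the rule was left out in turn.

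**Figure D1:**
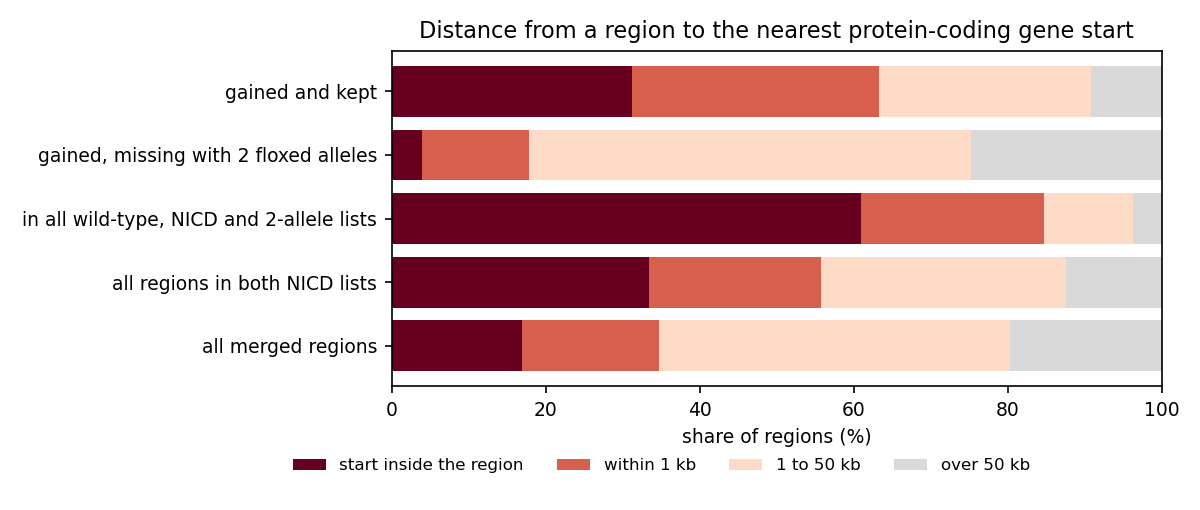
Share of regions (x axis, %) by distance to the nearest protein-coding gene start, for 5 sets of merged H3K27ac regions. The kept regions had a start inside or within 1 kb for 63.3%, the missing regions for 17.8%.

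The kept regions were taller than the missing ones in the NICD lists, at starts and in distal regions alike. NICD values took part in the choice of the regions, so they are given as a description. Their median fold enrichment was 5.83 in NICD replicate 1 (range 2.68 to 13.1) and 5.22 in replicate 2 (2.46 to 11.98). The missing regions had medians of 4.65 and 4.58. Median strength was 55.6 for kept, 38.7 for missing and 62.3 for all regions of both NICD lists. Median width was 601 bp for kept and 427 bp for missing regions. Kept promoter and distal regions had median strengths of 56.4 and 55.4. In every class of strength the share of gained regions that were kept was higher at gene starts than in distal regions. In the weakest class (strength below 20) it was 14.6% of 281 at starts and 2.15% of 836 distal regions. In the strongest class (80 and above) it was 57.5% of 73 and 16.1% of 56.

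**Figure D2:**
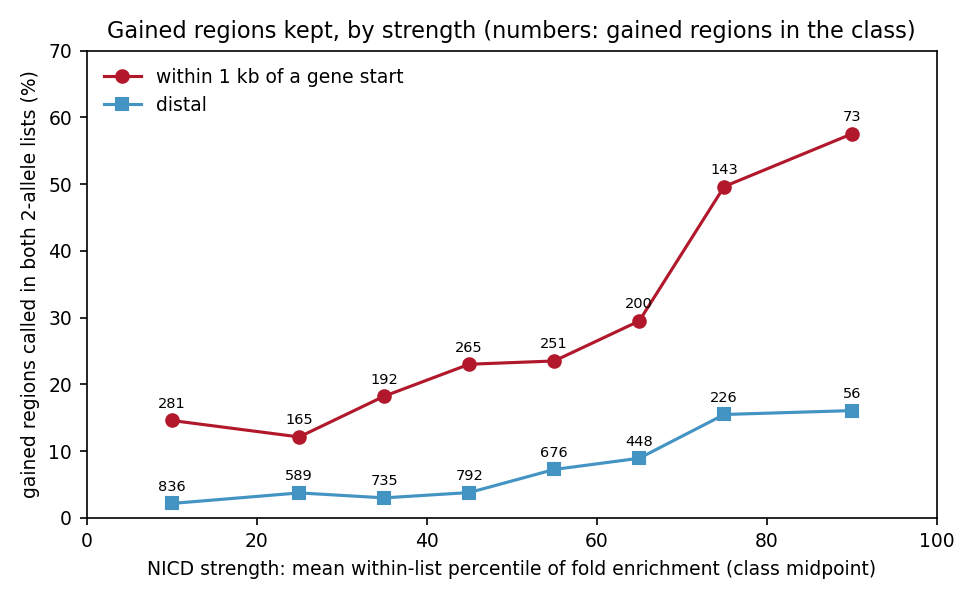
Share of gained regions called in both 2-allele lists (y axis, %) by class of NICD strength (x axis, mean within-list percentile), at gene starts and distal, with the number of gained regions in each class printed beside the point. The share at starts ran from 12.1% to 57.5%, above the distal share of 2.15% to 16.1% in each class.

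**Figure D3:**
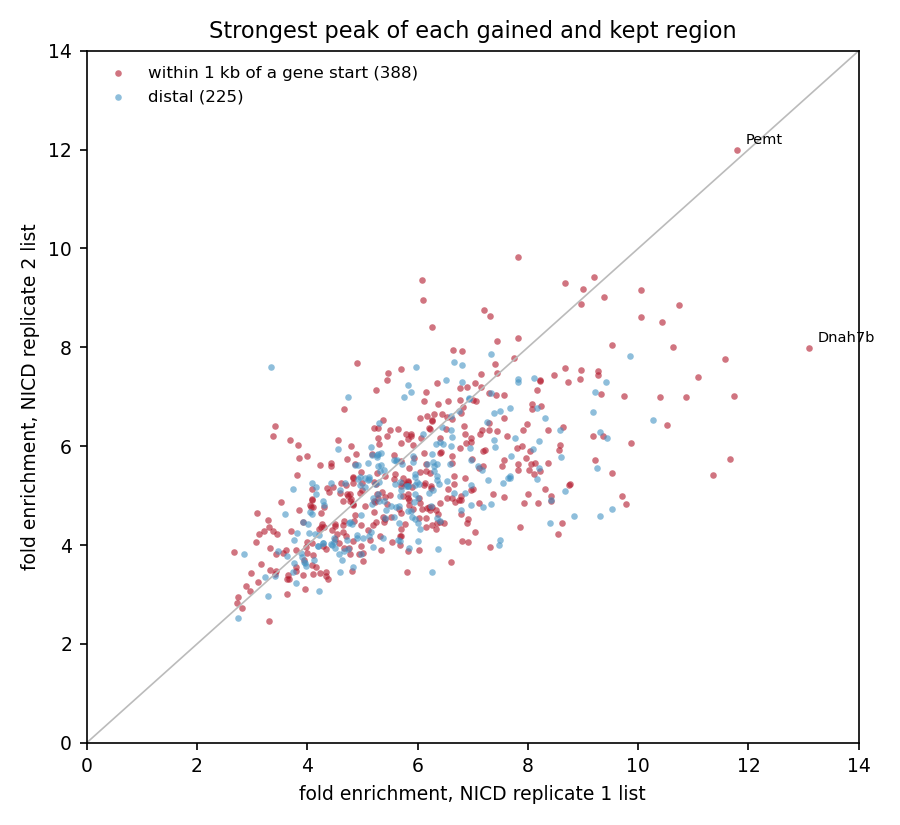
Fold enrichment of the strongest peak of each kept region in NICD replicate 1 (x axis) and replicate 2 (y axis), coloured by position, with the line of equal values in grey. Promoter (388) and distal (225) regions overlap, and the highest values, 13.1 at Dnah7b in replicate 1 and 11.98 at Pemt in replicate 2, are at promoters.

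The 8 strongest kept regions all lay at gene starts. The strongest, chr11:60045976-60046655, contains a start of Pemt, the enzyme that methylates phosphatidylethanolamine to phosphatidylcholine. Its fold enrichment was 11.8 in NICD replicate 1 and 11.98 in replicate 2, and H3K4me3 peaks lay over it at 5.40 in wild type and 14.6 in NICD. At chr2:93849380-93849921, over the start of Accs, the H3K27ac values were 10.7 and 8.85, and the H3K4me3 values 4.24 and 12.7. The region chr8:91313427-91313993 lies on the start shared by Fto, an RNA demethylase, and Rpgrip1l, a protein of the ciliary transition zone, with 10.0 and 9.17. All 3 regions lay over 10 kb from any wild-type H3K27ac peak.

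Dnah7b (chr1:46066661-46067295) encodes a dynein heavy chain of cilia and has near-identical gene copies, so reads there may be shared between copies. Its fold enrichment was 13.1 in NICD replicate 1, the highest of all kept regions in that list, and 7.98 in replicate 2. Erfe (chr1:91366357-91366968), which encodes the hormone erythroferrone, had 9.19 and 9.42. Cenpw (chr10:30200047-30200608), a gene for a centromere protein, had 10.4 and 8.51. Rad18 (chr6:112696187-112696869), whose product ubiquitinates PCNA at damaged replication forks, had 10.1 and 8.62. Trappc2l (chr8:122610911-122611469), a vesicle tethering factor whose start lies beside that of the lysosomal sulfatase gene Galns, had 9.38 and 9.03. The region at Trappc2l was the only one of the 8 with a wild-type H3K27ac peak close by, 228 bp away. Wild-type H3K4me3 peaks lay over all 8, with fold enrichment from 3.60 at Erfe to 6.53 at Cenpw.

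In the 2-allele lists these regions were not near the top. Those lists run in an order that went with how often their regions were called in NICD: 99.8% and 99.6% of the first 1000 regions were called in both NICD lists, against 63.7% and 65.5% of the last 1000. The kept regions had their median place at 70.6% of the way down list 1 and 70.3% of the way down list 2, and 18.8% and 20.9% lay in the upper part, before the midpoint. The strongest in NICD, Pemt, was at place 2643 of 15353 and 2763 of 14364. Dnah7b was at places 14805 and 7406, so the lists did not place it alike.

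Membership rests on calls in lists of unequal length, and many kept regions lay near the limits of the rule. A further 1256 regions had peaks in both NICD and both 2-allele lists and in 1 wild-type list, 751 of them in replicate 1. Their wild-type peaks had a median percentile of 44.0 in replicate 1 and 37.6 in replicate 2 of those lists. A wild-type peak lay within 1 kb of 202 kept regions (33.0%), 159 at starts and 43 distal, with a smallest gap of 25 bp. The lowest NICD percentile of a kept region was 2.49 in replicate 1 and 0.130 in replicate 2. In 572 kept regions (93.3%) the NICD and 2-allele peaks overlapped each other directly in all 4 pairs of lists, and in the other 41 at least 1 pair met only through the merged region. With the wild-type, NICD and 2-allele lists cut to equal length (14364 peaks), 213 of the 613 still met the rule. With peaks up to 500 bp apart merged 419 did, and with a stricter q-value 459. The 2-allele lists have no score, so they were cut in their given order and the stricter q-value left them whole. The 1-allele lists in the merge were not cut. With at least 50% overlap 612 met it, and 411 had no wild-type peak within 1 kb. Under these 5 alternatives together 164 (26.8%) met the rule, 104 at starts and 60 distal. Leaving out single libraries was not among the 5.

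Calls in the 1-allele lists did not decide membership, and few kept regions had one. Their peaks entered the merge that set the region boundaries, and leaving them out of it gave 613 regions again. Replicate 1 overlapped 15 of the 613 (2.45%) and replicate 2 overlapped 46 (7.50%), a mean of 4.98% ± 3.58 (SD, n = 2). Over all merged regions these lists overlapped 10.5% and 15.4%. The missing regions were overlapped at 0.634% and 1.06%, and regions of both NICD lists at 21.4% and 31.9%. The kept share was thus above the missing share in both libraries, by 1.81 and 6.45 percentage points, and below that of all NICD regions. The mean difference from the missing regions was 4.13 ± 3.28 percentage points (SD, n = 2; two-sided exact sign-flip permutation test over libraries, p = 0.5, the smallest p that 2 libraries allow). Compared inside 10 classes of NICD strength, the differences were 1.86 and 5.996 points. The 1-allele lists were the shortest, and without replicate 1 or replicate 2 the share was 7.50% or 2.45%.

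Only 1 kept region was called in both 1-allele lists, against 7.79% of all merged regions. It lies at chr10:77613163-77613737 on a start of Sumo3, a small protein modifier attached to other proteins. Its fold enrichment was 9.32 and 7.06 in NICD and 4.69 and 4.71 in 1-allele, and it had no H3K4me3 peak in wild type and one of 5.11 in NICD. Called in neither 1-allele list were 553 kept regions (90.2%; 81.9% of all merged regions). The 6 strongest of these lay at Pemt, Accs, Dnah7b, Erfe, Cenpw and Trappc2l. Among the 8 strongest kept regions, that at Fto and Rpgrip1l was called in 1-allele replicate 2 (5.84) and that at Rad18 in replicate 1 (5.19).

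The H3K4me3 lists were independent of the rule, and many kept regions carried this mark in wild type, where their H3K27ac was not called. In wild type 277 of the 613 (45.2%, 95% Wilson interval 41.3 to 49.2%) were overlapped, against 28.6% of all merged regions. In NICD 533 (86.9%, 84.1 to 89.4%) were overlapped, against 56.2%. In the Arid1a-floxed library 59 (9.62%, 7.54 to 12.2%) were overlapped, against 10.4%. These intervals cover counting of regions only, and with 1 library per group the 3 shares have no replicate check. The missing regions stood at 7.09%, 51.1% and 0.704% and the regions of both NICD lists at 53.2%, 80.3% and 20.9%.

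The length of the lists moved these shares. When the NICD H3K4me3 list was cut to the 17522 strongest peaks, the length of the wild-type list, 301 kept regions (49.1%) were overlapped, close to the wild-type share of 45.2%. Under this cut, 213 kept regions were marked in both lists, 88 in the cut NICD list alone and 64 in wild type alone. Among the missing regions the cut share was 21.7%, still above the wild-type share of 7.09%.

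**Figure D4:**
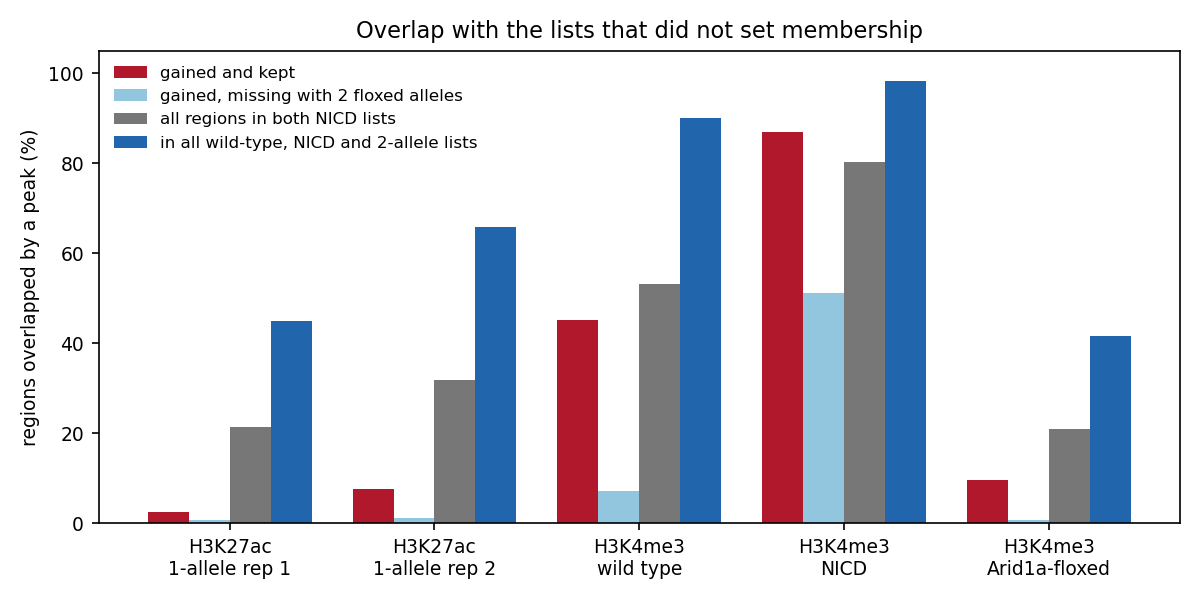
Share of regions overlapped by a peak (y axis, %) in the 5 lists that did not set membership, for 4 sets of regions. The kept regions lie above the missing regions in every list and below the regions called in all wild-type, NICD and 2-allele lists.

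H3K4me3 in wild type was tied to position. Of kept regions at starts, 256 of 388 (66.0%) had a wild-type H3K4me3 peak, and of distal ones 21 of 225 (9.33%). For missing regions the shares were 29.9% at starts and 2.14% distal. For all regions of both NICD lists they were 82.4% and 16.4%, so the kept shares lay below these at both positions. Of gained regions at starts, 36.9% were kept where wild type had H3K4me3 and 15.1% where it had none. Of distal gained regions the shares were 14.4% and 4.84%. Both position and the wild-type mark therefore went with being kept, each within the other. Among distal kept regions, 155 (68.9%) had an H3K4me3 peak in NICD, against 43.4% of distal missing regions and 58.7% of distal regions of both NICD lists. At starts this share was 97.4% for kept regions, 86.8% for missing regions and 97.4% for regions of both NICD lists.

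An H3K4me3 peak in NICD with none in wild type was found at 257 kept regions (41.9%), against 28.2% of all merged regions, 44.1% of the missing and 44.8% of all gained regions. The kept share was thus no higher than that of the gained regions as a whole. The strongest was at Hacd4 (chr4:88438419-88438981), an enzyme of very long chain fatty acid synthesis, with H3K27ac values of 9.26 and 7.52 and an H3K4me3 value of 13.0. A distal region nearest to the kinase gene Stk25 (chr1:93668483-93669478) had 9.41 and 7.30, with H3K4me3 at 12.1. The start of Fam151b had 8.67 and 7.58, with H3K4me3 at 12.8. The start of Tsc22d1, a transcription regulator, had 7.31 and 8.63, with H3K4me3 at 8.57. The start of Elob, which encodes the ubiquitin ligase subunit elongin B, had 8.74 and 7.31 with a wild-type H3K27ac peak 418 bp away. A distal region nearest to Ahcy, which breaks down S-adenosylhomocysteine, had 9.22 and 7.10. All 6 were also in both 2-allele lists by the rule, and 3 of them, at Hacd4, Tsc22d1 and Ahcy, were called in 1 of the 1-allele lists.

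Kept regions lay at the starts of 449 of 21631 protein-coding genes (2.08%), and missing regions at those of 812 (3.75%). The 18 gene lists were set against these shares without a test, since their members were chosen with earlier results of these data known. Several lists with a higher share, such as AP-1 genes, also had more regions of any kind in both NICD lists than the 50.0% of all genes, as 27 of its 31 genes had one.

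**Figure D5:**
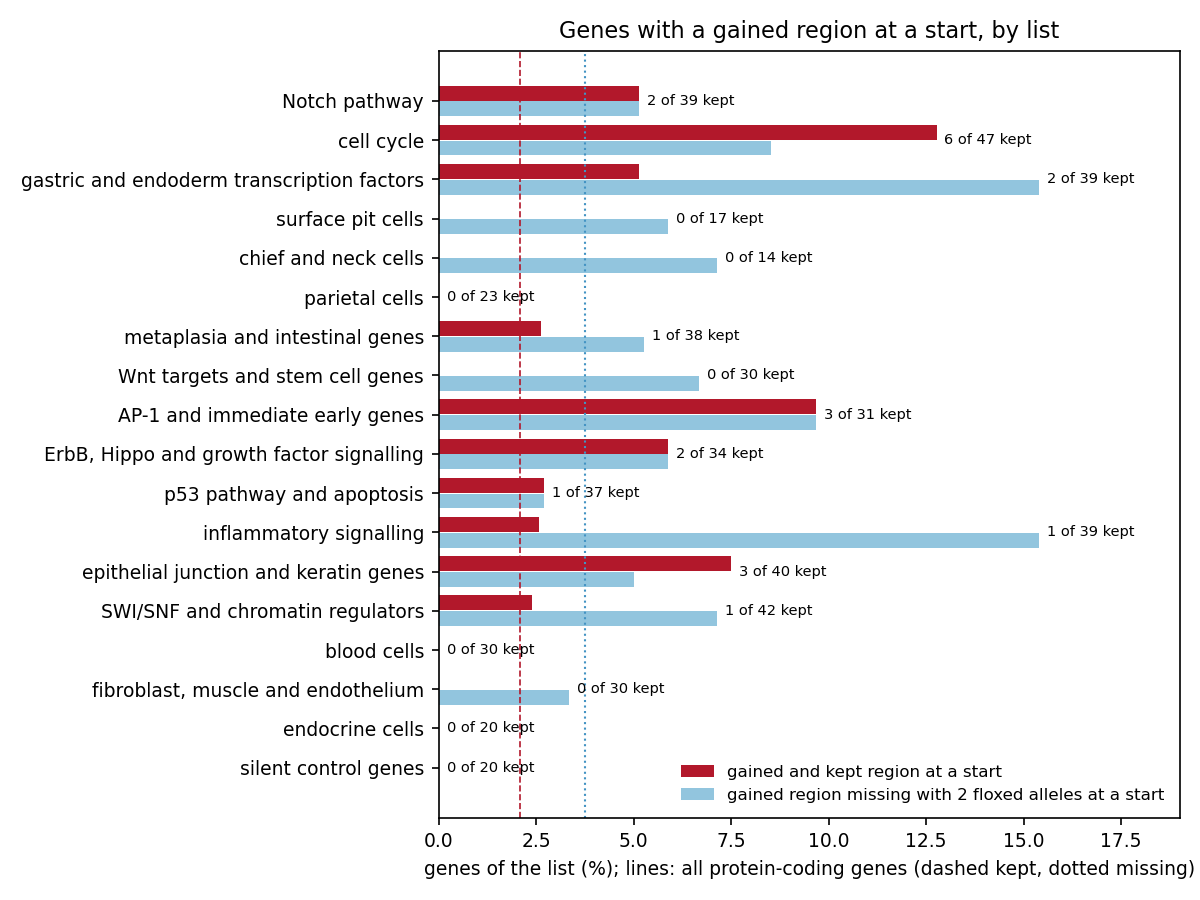
Percent of the genes of each list (x axis) with a kept or a missing region within 1 kb of a start, with the number kept, and lines for all protein-coding genes (2.08% kept, 3.75% missing). Cell cycle genes had the highest kept share, 6 of 47, and the inflammatory and gastric transcription factor lists had 6 missing genes each.

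The cell cycle list had the highest share of kept starts, 6 of 47 genes (12.8%), namely Aurkb, Mcm3, Ccnd3, Mcm4, Cdkn2a and Cdk6. Another 4 genes had a missing region (Bub1b, Ccnb1, Cdc20 and Mybl2). The list also had more regions of any kind in both NICD lists, at 34 of 47 genes (72.3%) against 50.0% of all genes. Aurkb, a mitotic kinase, had the strongest of the kept start regions in this list, with 8.08 and 6.85. Mcm3 and Mcm4 are subunits of the replicative helicase with 5.58 and 5.83, and 6.05 and 4.85. Ccnd3, a D-type cyclin, had 5.42 and 5.39. Aurkb and Mcm4 have no stranded start in the promoter table, so either end of the gene was counted, and the region at Mcm4 also lies at Prkdc. At Aurkb, Mcm3, Mcm4 and Ccnd3, H3K4me3 was called in wild type, from 5.06 at Mcm4 to 7.68 at Mcm3.

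In the Notch pathway, 2 of 39 genes had a kept start region. Dll1, a Notch ligand, had a pair of neighbouring kept regions. The stronger, chr17:15374947-15375818, had values of 5.29 and 6.17 in NICD and an H3K4me3 peak of 5.51 in NICD, none in wild type. The weaker, chr17:15376209-15376639, had 3.71 and 4.29 and lay under the same H3K4me3 peak. Maml2, a Mastermind coactivator of NICD, had a start region (chr9:13296681-13297587) with 4.89 and 5.85, which lay 426 bp from a wild-type peak. Maml2 was also the gene nearest to a distal kept region, chr9:13681112-13681817, with 6.93 and 6.96. Heyl, a Notch target, and Nle1, by contrast, carried a missing region at a start, so 2 genes of the list fell on each side. No Hes gene had a kept region at a start.

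The gastric and endoderm transcription factors had 2 of 39 genes with a kept start, Ovol1 and Sox2, and 6 with a missing one (Bhlha15, Elf3, Foxq1, Pdx1, Prdm16 and Runx1). Sox2, a factor of foregut and stem cells, had low values of 3.32 and 3.93 with no H3K4me3 peak in any list and a wild-type peak 608 bp away. Ovol1, an epithelial repressor, had 5.68 and 4.18 and shares its region with Ap5b1. Its end is one of those counted without a strand. Onecut2, a factor of liver and endocrine cells, was nearest to a distal kept region.

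Among the AP-1 and immediate early genes, 3 of 31 had a kept start, Fos, Zfp36l2 and Dusp6, and 3 a missing one, Dusp4, Fosb and Zfp36l2, so Zfp36l2 had both. The values were low, from 2.75 and 2.96 at Dusp6, an ERK phosphatase, to 3.91 and 3.39 at Fos, an AP-1 subunit. The gap to a wild-type H3K27ac peak was 219 bp at Fos, 1093 bp at Dusp6 and 1140 bp at Zfp36l2. Fos was also nearest to a distal kept region with 5.17 and 5.83. Of the growth factor and Hippo list, 2 of 34 genes had a kept start and 2 a missing one (Amotl1 and Btc). Wwtr1, the Hippo coactivator Taz, had 6.96 and 6.09, and Tead4, its DNA-binding partner, had 4.65 and 4.89, with wild-type peaks 369 and 112 bp away. Zfp36l2 and Tead4 are also counted at either end of the gene.

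The junction and keratin list had 3 of 40 genes with a kept start and 2 with a missing one (Cldn18 and Pkp1). The kept ones were Itga2 and Itga3, integrin chains that bind collagen and laminin, and the tight junction gene Cldn7. Their values ran from 3.43 to 4.34 in NICD replicate 1. Cldn7 was also the 1 kept gene among 38 metaplasia and intestinal genes, of which 2 had a missing region (Cldn18 and Muc4). Itga6, a laminin receptor chain, was nearest to a distal kept region with 6.51 and 7.34. The regions at Itga2 and Itga3 lay 112865 and 34452 bp from a wild-type peak. Bax (p53 and apoptosis list), an activator of mitochondrial cell death, was at 6.40 and 4.86, Tnfrsf12a (inflammatory list), the receptor of Tweak, at 3.79 and 3.90, and Suz12 (chromatin list), a Polycomb subunit, at 5.44 and 6.21. Each was the only kept gene of its list, beside 1 missing gene in the p53 list (Casp9) and 3 in the chromatin list (Bcl7a, Dpf2 and Smarca4). The inflammatory list had 6 genes with a missing region (Cxcl5, Ifit3, Il1rn, Irf1, Irf2 and Tnfaip3) and 1 kept. No gene of the pit, chief and neck, parietal, Wnt, blood, stromal, endocrine or silent lists had a kept start.

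Distal kept regions were spread over many genes. Only 165 of 21631 genes (0.763%) were nearest to a distal kept region within 50 kb, and 4 genes were nearest to 2 of them: Bfsp1, Clec2g, Rragc and Sdccag8. The 2 at Rragc, a subunit of the Rag GTPase that activates mTORC1, lie side by side under 1 H3K4me3 peak of 13.6 in NICD. The strongest distal region (chr13:100349408-100349864) was nearest to Naip6, with 9.85 and 7.82 and no H3K4me3 peak, and Naip genes have near-identical copies. The parietal list had 1 distal kept region, nearest to Ezr, which links the membrane to actin.

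Promoters at kept regions were richer in CpG than all promoters, as were those at regions of both NICD lists. The promoter table gave 316 promoters of 286 genes and 378 promoters of missing regions, each 300 bases long. A promoter was counted when its 300 bases overlapped a region by at least 1 bp, which is narrower than the 1 kb used for starts. The CpG observed over expected ratio had a median of 0.802 at kept, 0.687 at missing, 0.828 at regions called in all wild-type, NICD and 2-allele lists and 0.574 over all 21045 promoters. It exceeded 0.6 in 78.5%, 59.3%, 84.9% and 48.1%. At regions of both NICD lists the median was 0.807 and 80.9% exceeded 0.6, so the kept values were near these. Of the motifs searched on both strands, Ets (CCGGAAG) was in 23.4% of kept, 15.6% of missing and 11.7% of all promoters. It was in 23.5% of promoters at regions called in all wild-type, NICD and 2-allele lists and in 22.1% at regions of both NICD lists, so the kept share was near both. NF-Y (CCAAT) was in 42.7% of kept, 40.7% of missing and 38.5% of all promoters. Klf/Sp (GGGCGG) was in 64.6%, 60.1% and 46.7%, and in 71.3% at regions called in all those lists and 69.4% at regions of both NICD lists. The Rbpj letters (GTGGGAA) were in 7.59%, 6.61% and 6.07%, and AP-1 (TGANTCA) in 4.75%, 8.73% and 7.04%. The E-box (CACGTG) was in 11.4% of kept, 12.4% of missing and 7.91% of all promoters. At regions of both NICD lists NF-Y was in 36.7%, Rbpj in 5.67%, AP-1 in 4.45% and the E-box in 10.7% of promoters. The Runx letters (TGTGGT) were in 10.8% of kept, 10.1% of missing and 14.7% of all promoters, and in 10.9% for both NICD lists. The Tead letters (GGAATG) were in 10.4% of kept, 10.1% of missing and 13.5% of all promoters, and in 11.0% for both NICD lists. The second Klf motif (CCACACCC) was in 5.38% of kept, 4.23% of missing and 3.64% of all promoters, and in 3.72% for both NICD lists. The CRE (TGACGTCA) was in 4.11% of kept, 3.97% of missing and 2.26% of all promoters. For both NICD lists it was in 3.82%, so the kept CRE share was near that of the other called promoters. The rarer Fox (TGTTTAC) was in 2.22% of kept, 1.32% of missing and 3.03% of all promoters, and in 2.24% for both NICD lists. The Gata letters (AGATAAG) and the Sox letters (ACAATGG) were each in 1.58% of kept promoters, and the Hnf4 letters (CAAAGTCCA) in 0.316%. Over all promoters these 3 shares were 2.63%, 2.94% and 0.456%. They were 3.17%, 2.12% and 0.265% for missing regions and 1.39%, 1.71% and 0.277% for both NICD lists. Each motif was counted on its own, so matches of 2 motifs may overlap. A match is a description of letters only. The kept promoters had a median GC content of 60.8%, against 58.3% for missing, 62.3% for both NICD lists and 56.7% for all promoters.

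Of the kept regions, 4 lay within 1 kb of a miRNA gene. Both distal ones that contain one were chosen, after the values were seen, to be shown. The region chr9:51103566-51104060, nearest to Btg4, holds Mir34b, whose family is induced by p53, and lies beside Mir34c. It had H3K27ac values of 4.92 and 5.62 with H3K4me3 at 5.04 in wild type and 13.0 in NICD. The region chr11:75173295-75173678, nearest to Hic1, holds Mir212 and lies beside Mir132, with 5.95 and 5.22 and H3K4me3 at 5.09 in NICD and none in wild type. The mature RefSeq sequences (GRCm38.p6) are given with the seed, bases 2 to 8, in capitals.
miR-34b-3p: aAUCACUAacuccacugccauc
miR-34c-3p: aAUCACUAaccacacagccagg
miR-212-3p: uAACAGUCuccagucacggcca
miR-132-3p: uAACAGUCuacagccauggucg
The seed of miR-34b-3p and miR-34c-3p is shared, and so is that of miR-212-3p and miR-132-3p.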

How the data were processed

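H3K27ac (8 libraries) and H3K4me3 (3 libraries) peak lists of mouse stomach gland were used as the authors deposited them. The submitters' processing notes name Bowtie2, MACS2 and the build GRCm38 (mm10). Of the lists, 9 carry a header, and per the file headers MACS 2.0.10.20131216 called each library alone, without a control, at a q-value threshold of 0.05. Each peak of these deposited lists has a pileup signal, a −log10 p-value, a −log10 q-value and a fold enrichment, which is a ratio to the local background. These are the authors' scores, and they ranked or filtered peaks within 1 list at a time. The deposited 2-allele lists hold positions alone, and the sources used here do not give how they were made.

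Peaks on chromosomes 1 to 19 and X were merged, and regions were classed by an overlap of at least 1 bp. Starts of protein-coding genes came from the RefSeq tables (GRCm38.p6). For 4357 of 21631 genes, all of which lack an entry in the promoter table, no strand was known and both ends were used. "At a start" means within 1 kb, and a region is named by its nearest gene. Motifs were searched in promoters of 300 bases. Wilson intervals (95%) cover counting error only. The membership script was tested on simulated data. No region test was made, since regions are not replicates. Python 3.11.15, numpy 2.4.6, pandas 2.3.3, scipy 1.17.1, statsmodels 0.14.6 and matplotlib 3.10.9 were used.

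The members, gene lists and motifs were chosen with earlier results of these data known. Named were, by strength, the 8 strongest regions and the 8 strongest at a start (the same 8), up to 6 called in both and 6 in neither 1-allele list, the 6 strongest with H3K4me3 in NICD alone, up to 4 start and 4 distal genes of each list, and the genes with most distal regions, where 4 were tied. Genes of the lists with a missing region, Cdkn2a, Cdk6 and the miRNAs were named after their values were seen. Alternatives were other score thresholds, list lengths, overlaps, merging distances, start windows and leaving out each library. Of the genes chosen by the naming rule, 1 is not reported here.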

Additional observations from a re-analysis of the deposited data

How the results depend on the processing

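Every result below comes from calls rather than a model. No paired analysis was possible because the results come from no test that a replicate block could enter, and replicate numbers of separately pooled libraries pair nothing the labels name. The number of kept regions was 1195 with a −log10 q-value of at least 5, 368 with equal list length and 1322 with at least 50% overlap. The q-value filter could not act on the unscored 2-allele lists, and the 1-allele lists were not cut to equal length. With 1 library left out the number was 618 to 1364. Leaving out a library drops a condition of the rule, so the number could not fall below 613. The highest came without wild type replicate 1 (1364). It was 1118 without wild type replicate 2, 1111 without 2-allele replicate 1 and 1171 without 2-allele replicate 2. The distal share was 32.2%, 31.0% and 31.2% under those first 3 settings, 44.8% with peaks up to 500 bp apart merged, 12.9% with H3K4me3 peaks in place of gene starts, and 30.9% to 47.6% with 1 library left out. Chosen after seeing the data, it was 44.3% without regions within 1 kb of a wild-type peak and 43.9% with only genes of a stranded start. The 1-allele share was 10.7% with equal list length and 2.45% to 9.90% with 1 library left out, and the 1-allele difference from the missing regions was 1.81 to 8.71 percentage points with 1 library left out, positive under each setting run. The H3K4me3 share was 92.4% in NICD and 61.4% in wild type with equal list length, 49.1% in NICD with that list cut to the wild-type length (chosen after seeing the data), and 80.1% to 91.3% in NICD and 35.6% to 56.4% in wild type with 1 library left out. The cause was not tested. The alternatives for the wild-type H3K4me3 share were all added after seeing the data. Depth is unknown for the 2-allele lists, and a peak not called there, or in the short 1-allele lists, does not show that the mark is absent.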
